A study of Mus musculus with 4 samples.

Results

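Heads of Tbx1 knockout mouse embryos at embryonic day 12.5 (E12.5) were compared with wild-type heads of the same stage, on 1 Affymetrix Mouse Gene 2.0 ST array per genotype. These are 2 of the 4 arrays of the series; the other pair holds palatal shelves of the same genotypes at E13.5, shelf-like outgrowths of the upper jaw that fuse to make the secondary palate. The samples were selected by their titles. The wild-type group carried no modified allele named in the labels, the other group the Tbx1 knockout, and both stood on a mixed C57BL/6J x FVB/N background. The labels do not say which part of Tbx1 was removed, whether RNA of several embryos was pooled or of which sex the embryos were. All values are log2 expression values, and a difference is always the knockout value minus the wild-type value on that scale, so that 1 unit is a 2-fold difference. Genes are counted as lower or higher past a threshold of 0.32 on that scale, which is a level at least 20% below or 25% above that of wild type. Of 22180 genes on the arrays, 11364 entered because the higher of their 2 head values reached the entry level of 6.16, the median over named genes and arrays, and 503 of them reached it on 1 array only. A gene of that last kind had to differ, so for many lists that hold such genes the genes bright on both arrays are also given separately. Any named gene with 1 of its 2 printed head values under 6.16 is of that kind.

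Tbx1 encodes a T-box transcription factor. In the embryonic head it is best known from the pharyngeal endoderm, from the core mesoderm of the pharyngeal arches, which makes the jaw and face muscles, and from the otic vesicle, the epithelial sac that becomes the inner ear. It is the gene most closely tied to the malformations of the human DiGeorge deletion. A whole head at this stage holds many further tissues: brain, eye, nasal epithelium, neural crest mesenchyme, cartilage condensations, vessels and circulating blood. The gene lists below follow those tissues and the processes common to them.

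The head arrays differed little as a whole. Over the genes that entered the median difference was -0.02, 95% of differences lay between -0.32 and 0.29, and the Pearson correlation over all 41345 transcript clusters was 0.991 (across features, which are not replicates). Past the threshold, 274 genes were lower on the knockout array, 2.41% of those that entered, and 198 or 1.74% were higher. At least 2-fold lower were 6 genes (0.0528%) and at least 2-fold higher 4 (0.0352%). A difference below 0 was found for 55.5% of genes. These shares are the background for every count that follows. With 1 array per genotype no difference has a replicate check and no p-value is given. As a measure of reading error only, the differences of 2 transcript clusters of the same gene disagreed with an SD of 0.18 per cluster (232 genes). The central 95% of differences ran from -0.43 to 0.41 among the 2273 dimmest genes and from -0.25 to 0.16 among the 2273 brightest, so a difference of given size is less common among bright genes. The head label was checked on its marker genes: Otx2 (8.35 in wild type, 8.30 in the knockout), Six3 (6.38 and 6.63), Emx2 (8.20 and 7.88) and Pax6 (8.11 and 8.28), all forebrain or eye regulators, entered, whereas Rax (5.47 and 5.61) stayed under the entry level. Tbx1 read 6.83 in wild type and 6.25 in the knockout. With the deleted segment unknown, that value does not test the genotype label.

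**Figure D1:**
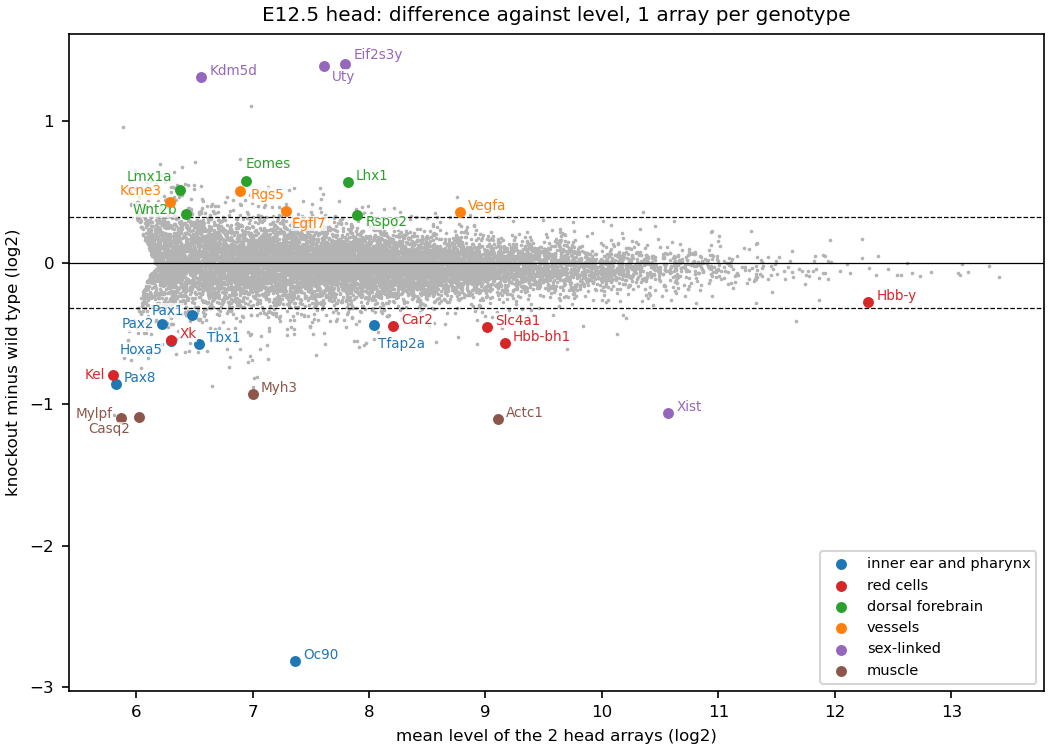
Difference between knockout and wild-type head (vertical axis, log2) against the mean level of the 2 arrays (horizontal axis, log2) for the 11364 genes that entered, 1 grey point per gene, with named genes coloured by tissue. Dashed lines mark the threshold. The cloud narrows toward bright genes, Oc90 lies lowest at -2.82, and the globin gene Hbb-y stands at the bright end at -0.28.

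Sex-linked transcripts differed between the head arrays, and this holds for every result below. The 3 genes of the Y-linked list that entered were higher on the knockout array: Eif2s3y by 1.41, Uty by 1.39 and Kdm5d by 1.32. All of them were also read on the wild-type array, Eif2s3y at 7.09 and Uty at 6.91, whereas Kdm5d at 5.90 lay under the entry level there. Xist, the RNA that coats the inactive X chromosome, went from 11.10 to 10.04. Of 7 X-linked genes with Y-linked partners or a role at the inactivation centre, 6 were below 0 with a median of -0.27 (-0.18 over the 6 bright on both arrays), among them Kdm5c (-0.38), Jpx (-0.29) and Kdm6a (-0.27). The X chromosome as a whole had a median of -0.00 over 390 genes, with 13 lower and 8 higher past the threshold, and the autosomal medians ranged from -0.03 to -0.00. The part of the sex-linked difference in the other results was not tested.

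The inner ear held the largest difference of the head. Oc90, which encodes otoconin, the main protein of the calcite crystals that load the balance organs, read 8.77 on the wild-type array and 5.95 on the knockout array, 7.04-fold lower. The knockout value lies under the entry level, where signal near background compresses folds. The other 11 genes on the list of otolith and otic matrix proteins did not reach the entry level on either array, so Oc90 was the only member with a value. In these bulk samples fewer cells of a type and less RNA per cell cannot be told apart, here and for all tissue genes below. Transcription factors of the otic placode and vesicle were lower as well: of 13 that entered, 10 were below 0, with a median of -0.15 and with 4 lower and 1 higher past the threshold. Among the 10 bright on both arrays the median was -0.14.

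Pax8, a paired-box gene and an early marker of the otic placode, had the lowest value of this list. It read 6.25 and 5.40 in wild type and knockout (-0.86), and its relative Pax2 read 6.44 and 6.01 (-0.43). Both entered through the wild-type array only. Tfap2a, a factor of placodes, neural crest and surface ectoderm, read 8.26 and 7.82 (-0.44), and Otx1, which patterns the ventral vesicle and is also a forebrain gene, 9.19 and 8.81 (-0.38). Eya4, a transcriptional co-activator of the vesicle, read 8.70 and 8.43 (-0.27). The exception was Lmx1a, a gene of the dorsal vesicle and of the roof plate of the brain, which read 6.12 and 6.64 (0.52). Lmx1a entered through the knockout array only and so had to be higher. Most of these genes are also made outside the ear, Otx1, Pax2 and Lmx1a in the brain among them.

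Genes of later inner ear function showed little of this. The 7 hair cell and supporting cell genes that entered had a median of -0.08, none past the threshold, with Whrn at -0.23 and Cdkn1b at -0.18. The 4 endolymph ion transport genes had a median of 0.02, with Car12 at 0.22 and the gap junction gene Gjb2 at 0.08. Among 10 genes of otic and other cranial ganglion neurons the median was -0.00 with 5 below 0. The 1 member past the threshold was Pou4f1, a homeobox gene of sensory neurons, habenula and retinal ganglion cells, at 7.24 and 6.74 (-0.50). Neurog1, which starts the neurogenic programme of the otic ganglion, differed by 0.03.

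Other Pax genes differed in direction. Pax1, a gene of pharyngeal pouch endoderm and of sclerotome, was lower, with 6.66 in wild type and 6.30 in the knockout (-0.37). Pax9, expressed in the pouches but also in the facial mesenchyme, differed by -0.08. Pax6 (0.17), Pax3 (0.12) and Pax7 (0.11), genes of neural tube and crest, lay above 0. Over the 7 Pax genes the median was -0.08, and over the 5 bright on both arrays, without Pax8 and Pax2, it was 0.11. The list of thyroid, thymus and parathyroid genes, which holds Pax8 and Pax1, had 5 of 6 members below 0 and a median of -0.16, but -0.08 over the 5 bright on both arrays. Ccl25, a chemokine of the thymic rudiment, was at -0.25, whereas Nkx2-1, of thyroid and ventral forebrain, was at 0.13.

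Hox genes, silent in the rostral head and active from the hindbrain and second arch backward, entered with 6 of 36 members. Of these, 5 were below 0 and the median was -0.15, but Hoxa5 and Hoxd3 entered through the wild-type array only, and over the other 4 it was -0.05. Hoxa5 read 6.57 in wild type and 6.02 in the knockout (-0.55), Hoxa2, the selector gene of the second arch, 7.75 and 7.45 (-0.29), and Hoxd3 6.19 and 5.96 (-0.23). Hoxa4 went the other way (6.62 and 6.75). Other genes with a pharyngeal tie differed less: over 16 genes reported as Tbx1 partners or targets the median was -0.02, and Pax1 was the only member past the threshold. In the list of genes that neighbour Tbx1 in the human DiGeorge region, 20 of 27 were below 0 with a median of -0.04. Tbx1 itself was the only one past the threshold (-0.57), next to Cdc45 at -0.23 and Mrpl40 at 0.23.

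Blood was the next system with lower values. A head at E12.5 contains circulating primitive red cells, whose embryonic globins differ from those of the fetal liver, and so whole-head RNA carries globin and red cell membrane transcripts. The 3 globin genes that entered were all embryonic forms and all lower on the knockout array. Hbb-bh1, the early embryonic beta-like globin, read 9.45 and 8.88 (-0.56, 1.48-fold lower), Hbb-y, the major embryonic beta-like globin, 12.42 and 12.14 (-0.28), and Hba-x, the zeta-like alpha globin, 8.68 and 8.48 (-0.20). Close relatives among globins can share probe signal.

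Proteins of the red cell membrane and of blood groups gave the lowest median outside muscle. Of 11 genes that entered, 9 were below 0, and past the threshold 4 were lower and none higher, with a median of -0.30. Since 4 of the 11 entered through 1 array only and had to differ, the median over the 7 bright on both arrays is given beside it, and it was -0.12. Slc4a1, the band 3 anion exchanger, read 9.24 and 8.79 (-0.45). Kel, the Kell blood group protease, read 6.20 and 5.41 (-0.80), and Xk, its disulphide-linked partner, 6.58 and 6.03 (-0.55). Epb42, which ties band 3 to the cytoskeleton, read 6.23 and 5.89 (-0.34) and Ermap, the Scianna antigen, 6.95 and 6.64 (-0.31). Kel, Xk and Epb42 entered through the wild-type array only and so had to be lower. Slc4a1 was the only member past the threshold that was bright on both arrays. The members above 0 were Slc2a1 (0.15), a glucose transporter that brain capillaries and many other cells also make, and the water channel Aqp1 (0.07).

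Other red cell genes lay on the same side with smaller values. Of 12 genes for heme synthesis and iron uptake 11 were below 0, none past the threshold, and the median was -0.10. Slc25a37, the mitochondrial iron importer mitoferrin, was at -0.23 and Fech, which inserts iron into heme, at -0.12. Abcb10 was the exception at 0.11. Of 10 further late erythroid genes 3 were lower past the threshold: Car2, a carbonic anhydrase (8.43 and 7.98), Cd59a, an inhibitor of complement (8.48 and 8.09), and Bpgm, which makes the allosteric effector of hemoglobin (8.54 and 8.18). Erythroid transcription factors were mixed, with 5 of 9 below 0. Gfi1b, needed for red cell and megakaryocyte maturation, was at -0.40, but Tal1 (0.28), Runx1 (0.24) and Kit (0.24), which vessels, neurons or melanoblasts also express, were above 0. Macrophage genes had 8 of 15 below 0 and a median of -0.01, with C1qa (-0.36) the only one past the threshold. Platelet genes were split between Gp9 (-0.37) and Vwf (0.45), which endothelium also makes.

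GATA factors drive red cell genes through a short motif. The promoters printed below belong to members of the lists above and were chosen because they hold it. The motif searched was AGATAA or TGATAA on either strand within 250 bases before the transcription start, taken from RefSeq promoters on GRCm38.p6. It occurred in 17.0% of 27025 promoters and in 8.32% of those of genes that entered. Past the threshold it stood in 21 of 177 promoters of lower genes and in 19 of 136 of higher genes. The motif was therefore not more common among lower than among higher genes. Of the red cell membrane genes with a promoter sequence it was held by 5 of 12, or 3 of 9 of those that entered, and of the globins by 3 of 5, or 2 of 2 that entered. The last 120 bases before the start are printed 5′ to 3′ on the strand of the gene, with the motif in capitals (TTATCA is TGATAA on the opposite strand). A match is a description of these letters, not evidence of a bound site.
Kel, chr6:41704326-41704445, minus strand: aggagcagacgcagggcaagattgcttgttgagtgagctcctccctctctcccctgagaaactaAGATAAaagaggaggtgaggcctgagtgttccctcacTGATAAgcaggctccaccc
Ermap, chr4:119189996-119190115, minus strand: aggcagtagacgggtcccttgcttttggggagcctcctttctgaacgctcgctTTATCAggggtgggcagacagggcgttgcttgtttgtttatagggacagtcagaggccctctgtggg
Hba-x, chr11:32276480-32276599, plus strand: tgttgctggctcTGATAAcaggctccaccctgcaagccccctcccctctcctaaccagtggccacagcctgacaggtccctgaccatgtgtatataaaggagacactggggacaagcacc
Kel carried the motif at positions -56 and -19 from the start, and Ermap and Hba-x carried it once each in these 120 bases, whereas Hbb-y and Epb42 carried none in theirs. The promoters were also searched for the T-box half-site GGTGTGA on either strand. It stood in 2.5% of promoters of genes that entered, in 4 of 177 of those lower past the threshold (2.26%) and in 8 of 136 of those higher past it (5.88%).

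**Figure D2:**
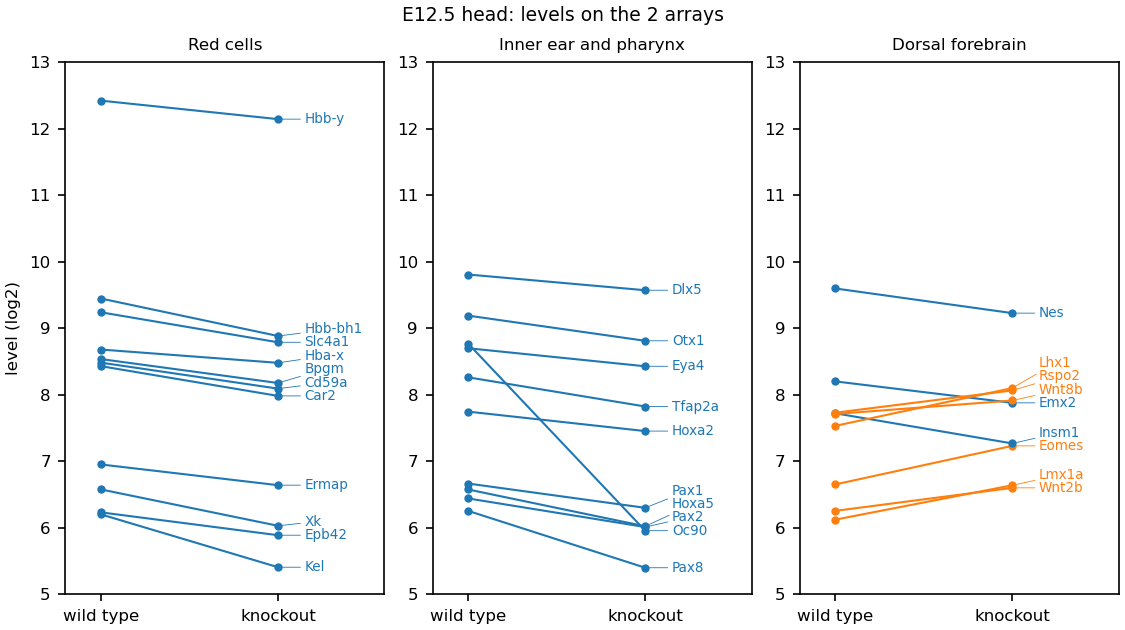
Levels (vertical axis, log2) on the wild-type and the knockout head array for named genes of red cells, of the inner ear and pharynx, and of the dorsal forebrain, 1 line per gene, blue where the knockout was lower and orange where it was higher. Red cell, ear and pharynx genes with lower values were chosen for the first 2 panels (members above 0, such as Slc2a1 at 0.15 and Lmx1a at 0.52, are given in the text), Oc90 has the steepest line (8.77 to 5.95), and the forebrain panel holds both directions.

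Endothelial genes lay mostly above 0. Of 27 endothelial identity genes 9 were below 0 and the median was 0.11, against a median of -0.02 over all genes. Egfl7, a secreted factor of endothelium, read 7.10 and 7.47 (0.37), Nos3, the endothelial nitric oxide synthase, 6.38 and 6.66 (0.28), and Flt1, a VEGF receptor, 7.01 and 7.23 (0.23). Tie1, the orphan partner of the angiopoietin receptor, opposed them at 7.04 and 6.77 (-0.27), as did Ets1 at -0.20. A single member, Egfl7, passed the threshold.

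Angiogenic tip cell and VEGF genes had 3 of 13 below 0, a median of 0.08 and 3 members higher past the threshold, where the background over all genes is 1.74%. These were Kcne3, a potassium channel subunit enriched in tip cells (6.07 and 6.51), Vegfa, the main angiogenic ligand (8.60 and 8.96), and Apln, the ligand of the apelin receptor (6.51 and 6.86). Kcne3 and Apln are among the 2273 dimmest genes, whose central range of differences reached 0.41, so the share over all genes is too low a background for them. Vegfa is brighter, and the range at its level reached 0.21. Kcne3 entered through the knockout array only, and without it the median was 0.05. Over the 7 members that reached a stricter entry level of 7.79, the median was 0.01. Pericyte genes had 3 of 13 below 0 and a median of 0.09. Rgs5, the classical pericyte marker, read 6.64 and 7.15 (0.51), and Abcc9 (0.23) and Tbx18 (0.24) were also above 0, whereas Anpep stood at -0.19. Arterial and Notch genes had 10 of 15 below 0 (median -0.05) despite Hey2 at 0.30. Blood-brain barrier transporters (median 0.03) and lymphatic genes (0.06) held no member past the threshold. Smooth muscle genes had a median of -0.01, and Des (-0.50) and Tpm2 (-0.29), which skeletal muscle shares, were their lowest members.

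Among brain genes, those of the cortical hem lay mostly above 0. The cortical hem is a strip of Wnt- and BMP-producing neuroepithelium at the edge of the cortex, and it gives rise to Cajal-Retzius neurons, the reelin-making first neurons of the cortical surface. Of 22 hem and Cajal-Retzius genes that entered 4 were below 0, the median was 0.10, and 4 were higher past the threshold. Lhx1, a LIM homeobox gene of early neurons there and in other brain regions, read 7.53 on the wild-type and 8.10 on the knockout array (0.57). Lmx1a, a hem and roof plate gene that entered through the knockout array only, was described above. Over the 21 members bright on both arrays the median was 0.09. Wnt2b, a hem Wnt, read 6.25 and 6.60 (0.35), and Rspo2, a secreted enhancer of Wnt signalling, 7.73 and 8.06 (0.34). Wnt8b was at 0.20, and Ebf3 at -0.18 was the lowest member. Reln itself, the marker by which Cajal-Retzius cells are recognised, differed by 0.07. Over the 5 members that stand on no other list the median was 0.02.

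Eomes, a T-box gene of intermediate cortical progenitors and of early Cajal-Retzius neurons, read 6.65 and 7.23 (0.58). It was the highest of the 9 T-box genes that entered, 3 of which were below 0, with a median of 0.13. The rest of its list, intermediate progenitors and early cortical neurons, did not share its value: 13 of 24 were below 0, the median was -0.01, and Insm1, a zinc finger gene of delaminating progenitors, read 7.72 and 7.27 (-0.45). Radial glia and neural progenitor genes had 16 of 26 below 0 (median -0.03) with 3 lower past the threshold. These were Lix1 (8.74 and 8.29), Nes, the intermediate filament of neural stem cells (9.60 and 9.23), and Emx2, a regulator of cortical area size (8.20 and 7.88). Choroid plexus and roof plate genes, also of the dorsal midline, had 9 of 16 below 0 and a median of -0.03, and their best known product Ttr read 10.33 and 10.59 (0.26).

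Regional genes of the rest of the brain showed single members rather than lists. Dbx1, which marks progenitors in hypothalamus, hindbrain and cortical boundaries, read 7.78 and 7.27 (-0.51), and Sim1, of the paraventricular hypothalamus, 7.39 and 7.78 (0.39), in a hypothalamic list of 18 with a median of 0.05. Pou3f4, a homeobox gene of neural tube and of the mesenchyme around the inner ear, read 8.31 and 7.78 (-0.54), and Foxb1, of diencephalon and mammillary region, 6.32 and 5.82 (-0.50). Foxb1 entered through the wild-type array only. Among thalamus, midbrain and diencephalon genes the median over 27 was -0.01, and Tal2 was at 0.33. Hindbrain and branchiomotor genes held Lhx1 (0.57) against Pax2 (-0.43), Hoxa2 (-0.29) and Isl2 (-0.25), a homeobox gene of motor neurons. Ventral forebrain GABAergic genes had a median of -0.00 over 22 with none past the threshold.

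General neuronal genes barely differed. Of 36 cytoskeleton and growth cone genes 20 were below 0 with a median of -0.01, and Nefm, a neurofilament subunit, was the single member past the threshold (8.62 and 8.29). Synaptic vesicle genes had 12 of 25 below 0 and a median of 0.00, between Syp at 0.28 and Syt11 at -0.23. Voltage-gated sodium and calcium channels were more often above 0, with 4 of 22 below 0 and a median of 0.06. Glutamate receptors had 3 of 13 below 0, a median of 0.10 (0.08 over the 12 bright on both arrays) and 2 members higher past the threshold, Grik1 (5.80 and 6.23) and Gria4 (8.20 and 8.52). Grik1 entered through the knockout array only. Oligodendrocyte precursor (median -0.03) and Schwann cell genes (-0.01) held no member past the threshold. In the second group Erbb3, the neuregulin receptor of crest-derived glia, was lowest at -0.29.

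The olfactory epithelium list had a median of 0.03 over 11 genes, and the list of Rathke's pouch and pituitary genes one of -0.14 over 9. In the pituitary list 7 were below 0, none past the threshold, the median over the 8 bright on both arrays was -0.08, and it held Pitx1, a gene of oral ectoderm and pouch, at -0.24, and Six6 at 0.26. In the eye, crystallins were split between Cryga (8.70 and 9.04) and Crybb1 (9.03 and 8.73), and the 21 neural retina genes had a median of 0.01. Of the pigment genes 1 was lower past the threshold: Pmel, the scaffold on which melanin is laid down, read 7.20 and 6.71 (-0.49). Dct, a melanin synthesis enzyme that entered through the wild-type array only, fell just short (6.24 and 5.92). Of the 10 pigment genes 5 were below 0, and over the 9 bright on both arrays the median was 0.03. Sox10, of melanoblasts and crest glia, was at -0.13 and Kit at 0.24.

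Neural crest mesenchyme of the face and jaw differed by small amounts. The 5 Dlx and Msx genes that entered, homeobox genes that pattern the arches, were all below 0 with a median of -0.21, namely Dlx2 and Dlx5 at -0.24, Msx2 at -0.21, and Dlx3 and Dlx6 at -0.15, none of them past the threshold. Dlx5 and Dlx6 are also otic vesicle genes, and Dlx2 and Dlx5 forebrain genes. The wider list of arch patterning genes had 11 of 18 below 0 and a median of -0.03. Among 30 frontonasal and palatal mesenchyme factors the median was 0.01, with Tfap2a (-0.44), Meox2 (7.42 and 7.03), a homeobox gene of palate and of muscle precursors, and Pax1 past the threshold. In cartilage Sox9, the master factor of chondrocytes that is also made by otic and neural progenitors, read 10.59 and 10.29 (-0.29), yet 10 of 20 cartilage genes were below 0 and Col2a1, the main cartilage collagen, was at -0.14. Sox genes as a family had 12 of 17 below 0 and a median of -0.10.

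Bone matrix genes had a median of 0.04 over 12, with Col1a1 at 0.29. Col1a2, the other chain of the same collagen, was at -0.17, but at 0.06 by its brighter cluster alone. Tendon genes had a median of -0.01 and 1 member past the threshold, Thbs2 (8.02 and 8.41). In tooth germ genes 7 of 12 were below 0 and the median was -0.10, or -0.08 over the 11 bright on both arrays, but Eda, the ectodysplasin ligand that sets the size of tooth placodes, was higher (6.41 and 6.77). Sostdc1, a Wnt and BMP antagonist of the tooth epithelium, was at -0.21 and Barx1, of molar mesenchyme, at -0.15.

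Surface and oral epithelium differed little. Keratins Krt14, Krt10 and Krt8 lay between 0.07 and 0.10 and Krt15 at -0.16. Of 17 junction and polarity genes 9 were below 0 with a median of -0.01, and St14, a membrane protease, was lowest at -0.29. Basal epidermis and periderm genes had a median of 0.06, where Itgb4 (0.28) and Lama3 (0.27), subunits of the hemidesmosome and its laminin, stood with Perp (0.26), a desmosome gene. The motile cilia list had 5 of 8 below 0, led by Foxj1, its master regulator, at -0.32. Aqp5, the water channel of salivary and lacrimal glands, read 6.51 and 6.15 (-0.36) and entered through the wild-type array only.

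Signalling pathways were read through ligands, receptors and the targets that report activity. Wnt ligands with the R-spondins had 4 of 11 below 0, a median of 0.10 and 2 members higher past the threshold, the hem genes Wnt2b and Rspo2. The Wnt ligands without the R-spondins were evenly split, with 4 of 8 below 0. Their median was 0.05, or 0.10 over the 7 bright on both arrays. Wnt receptors, antagonists and targets had a median of 0.01 over 29, with Fzd4 (-0.29) and Frzb (-0.28), a secreted antagonist, lowest. In FGF signalling, which acts with Tbx1 in arches and ear, the ligands had a median of 0.06 over 9, none past the threshold, whereas receptors and feedback targets had 17 of 20 below 0 and a median of -0.06. Spry2, a feedback inhibitor induced by FGF, read 7.39 and 7.01 (-0.37), and Fgfrl1 (-0.28), Spred2 (-0.25) and Dusp4 (-0.21) lay on the same side. Spred3 (8.42 and 8.75) and Fgfr2 (9.18 and 9.39) opposed them.

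BMP and TGF-beta (median -0.01 over 42), Hedgehog (0.02 over 17), Notch (-0.03 over 26), retinoic acid (-0.00 over 15) and Eph, semaphorin and plexin genes (-0.00 over 43) had medians close to that of all genes. Their members past the threshold were Acvrl1, an endothelial receptor of the BMP family (6.11 and 6.45), Bmp3 (6.88 and 7.21) and the retinoid receptor Rxrg (6.17 and 5.75), which developing muscle and photoreceptors also make. Acvrl1 entered through the knockout array only and Rxrg through the wild-type array only, so both had to differ. Among chemokines Cxcl13, an attractant of B cells, was lower (6.44 and 5.77), and Ccl9 (5.87 and 6.25) and Cxcl14 (10.17 and 10.53) were higher. Cxcl13 reached the entry level on the wild-type array only and Ccl9 on the knockout array only, so both had to differ. Cxcl14 is made by placodes, epidermis and other embryonic epithelia.

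Matrix genes of the basement membrane lay mostly above 0, by small amounts. Of 22 that entered 3 were below 0, where 55.5% of all genes were, and the median was 0.06 with no member past the threshold. The 9 laminin chains that entered were all above 0, from Lama3 (6.56 and 6.83) and Lamb2 (8.14 and 8.33) downward, with a median of 0.07. Frem1, of the basement membrane beneath epidermis, was at 0.26 and Hspg2, perlecan, at 0.12, while Col4a5 was the lowest at -0.15. Integrins had 4 of 15 below 0 and a median of 0.08, or 0.06 over the 13 bright on both arrays and 0.00 over all 26 on the array. Collagens of fibrils and networks had a median of 0.06, and small proteoglycans and microfibril genes one of -0.05 in spite of Emilin1 (8.24 and 8.56). Cemip, a hyaluronan-degrading protein, read 6.15 and 6.86 (0.71), 1.64-fold higher, although its list had 9 of 14 below 0 with a median of -0.08. Cemip entered through the knockout array only.

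**Figure D3:**
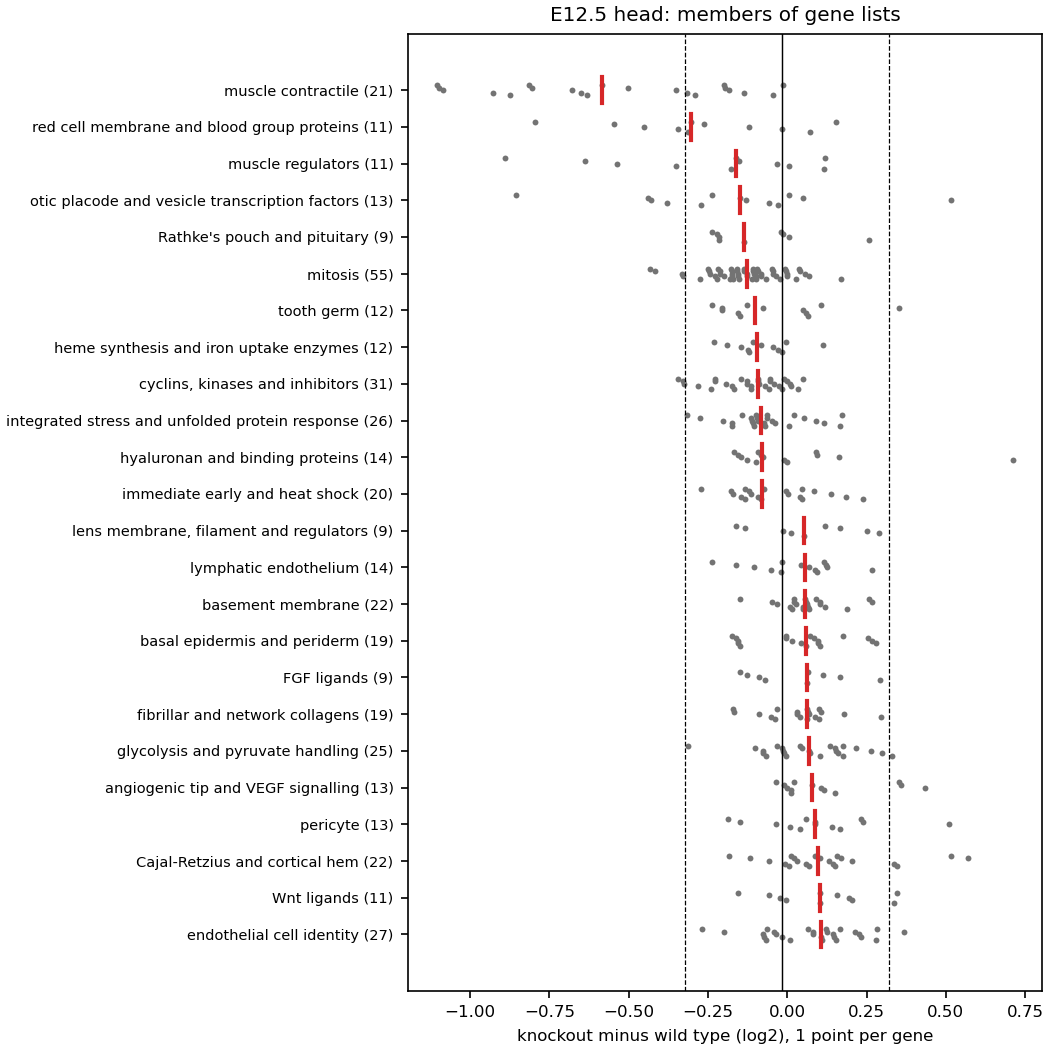
Differences between knockout and wild-type head (horizontal axis, log2) for each member of 24 gene lists, the 12 with the lowest and the 12 with the highest medians among lists with at least 9 genes that entered (number in brackets). Red bars are medians, the solid line is the median of all genes and dashed lines mark the threshold. Muscle and red cell membrane lists spread far to the left, while mitosis genes form a narrow group around -0.13.

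Cell division genes lay below 0 in their great majority. All 55 mitosis genes on the array entered, all on both arrays. Of these, 49 were below 0 and the median was -0.13, with the middle 50% between -0.19 and -0.05. Past the threshold were 4, all lower, so most of the shift lay in members with smaller differences. Incenp, the scaffold of the chromosomal passenger complex, read 8.11 and 7.68 (-0.43), Fbxo5, the inhibitor of the anaphase-promoting complex, 7.72 and 7.30 (-0.42), Espl1, separase, 7.88 and 7.55 (-0.33), and Ska3, of the outer kinetochore, 7.35 and 7.03 (-0.33). Kif22, a chromosome-arm kinesin, was at -0.27.

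Related lists lay on the same side. The list of cyclins, their kinases and inhibitors, with E2F factors, had 27 of 31 below 0 and a median of -0.09. Its 3 members lower past the threshold were E2f8 (8.23 and 7.88), Cdc25a (8.73 and 8.40) and E2f5 (8.13 and 7.80). Since it holds inhibitors too, its count is not one of genes that promote division alone. Replication genes had 33 of 42 below 0 and a median of -0.07. Pold2, a subunit of DNA polymerase delta, read 9.02 and 8.50 (-0.52), and Rpa3 opposed the list at 0.27. Histone genes expressed in S phase had 9 of 11 below 0 and a median of -0.11, or -0.08 over the 10 bright on both arrays. The lowest were H2bc9 (6.34 and 5.27), which entered through the wild-type array only, H2bc3 (8.86 and 8.30) and H2bc21 (6.86 and 6.40). Histone genes of 1 family are near copies of each other, so single values are uncertain. The median over all genes itself is below 0, and 81.8% of mitosis genes were below it.

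Mitosis genes share promoter elements, a CCAAT box and a cell cycle homology region. The promoters of Espl1 and Kif22 were chosen for print because they hold both. They were picked among mitosis genes with both motifs, starting from the lowest differences, so they do not tie the motifs to the size of a difference. The first is the letters CCAAT and the second was searched as TTTGAA, both on either strand in 250 bases before the start. The box with CCAAT occurred in 34.5% of all promoters, in 36.7% of those of genes that entered and in 32 of 45 mitosis promoters (71.1%). The motif TTTGAA of the second element occurred in 16.3% of all promoters, in 9.96% of those of genes that entered and in 16 of 45 mitosis promoters (35.6%). Capitals mark both motifs in the last 120 bases (ATTGG is the box read from the opposite strand, and likewise TTCAAA is the second element).
Espl1, chr15:102296173-102296292, plus strand: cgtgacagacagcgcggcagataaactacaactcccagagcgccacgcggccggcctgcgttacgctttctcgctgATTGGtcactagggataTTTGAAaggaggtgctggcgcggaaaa
Kif22, chr7:127042421-127042540, minus strand: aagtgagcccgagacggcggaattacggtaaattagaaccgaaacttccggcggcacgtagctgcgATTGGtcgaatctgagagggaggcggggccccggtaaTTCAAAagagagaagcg

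**Figure D4:**
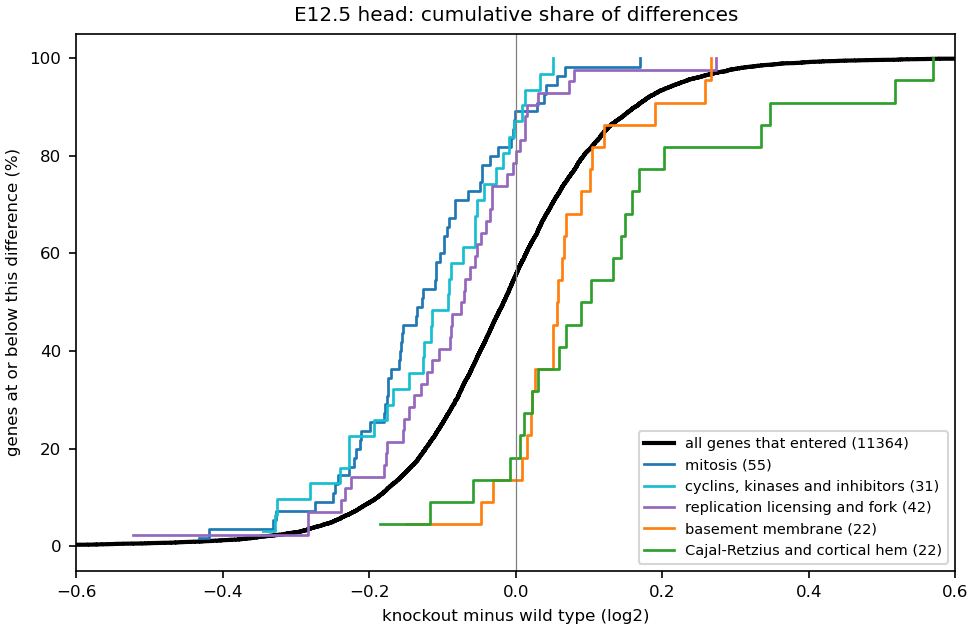
Cumulative percentage of genes (vertical axis) at or below a given difference (horizontal axis, log2, knockout minus wild type) for all genes that entered and for 5 gene lists, with the number of genes in brackets. The mitosis curve (median -0.13) runs left of that of all genes (-0.02), with the cyclin and replication curves between, and the basement membrane (0.06) and cortical hem (0.10) curves run right of it in most of their course.

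Stress and metabolic lists mostly stayed within 0.1 of 0. Integrated stress and unfolded protein genes had 19 of 26 below 0 (median -0.08), with Phgdh, the first enzyme of serine synthesis, at -0.31 and Ddit3 at -0.27. One-carbon, serine and polyamine genes had 14 of 20 below 0 (median -0.07), with Gldc, of glycine cleavage, at -0.31. Glycolysis genes had 10 of 25 below 0 and a median of 0.07, from Eno2 (6.91 and 7.24) and the glucose transporter Slc2a3 (0.30) to Pfkm (-0.31), the muscle form of phosphofructokinase. Hypoxia targets outside glycolysis had a median of -0.00 with 12 of 24 below 0. Of that list Vegfa (0.36) and Rora (6.61 and 7.06) were higher and Hmox1, which breaks down heme, was lower (6.88 and 6.51). Among clock genes Ciart, a repressor of the core clock, read 5.84 and 6.42 (0.58) and entered through the knockout array only. Imprinted genes had 18 of 29 below 0 and a median of -0.04, with Plagl1, a growth regulator of the imprinted network, at 7.14 and 6.47 (-0.67) and Mkrn3 at 6.24 and 5.78 (-0.46). Mkrn3 entered through the wild-type array only. The Plagl1 value is the mean of 2 transcript clusters, and the brighter cluster alone gave -0.04.

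Large families of housekeeping genes had medians close to 0, namely -0.00 for 55 cytosolic ribosomal proteins, 0.02 for 30 complex I subunits, -0.04 for 32 proteasome subunits and -0.02 for 276 zinc finger genes of the Zfp series. Even there, single members passed the threshold, such as Rpl22l1 (6.53 and 7.26), Rps13 (8.87 and 8.43) and Eif4a3 (7.36 and 6.76). Of 86 lists 85 had a median. It was at or below -0.1 in 10, at or above 0.1 in 3 and between in 72.

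Transcript clusters that the platform annotation ties to no gene or to several genes were counted apart. Of 5982 that reached the entry level, 64 (1.07%) were at least 2-fold lower on the knockout array and 32 (0.535%) at least 2-fold higher. None of the 802 clusters with several genes was among them. The SD of their difference was 0.34, against 0.16 for named genes.

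Muscle genes, the lowest list, are given in brief. All 21 contractile genes that entered were below 0, 13 of them past the threshold, with a median of -0.58, or -0.49 over the 16 bright on both arrays. Regulators had 8 of 11 below 0 with a median of -0.16, or -0.15 over the 9 bright on both arrays. Myf5, the earliest determination factor, read 6.28 and 5.64, Myod1 6.61 and 6.07, and Myog, of differentiation, 7.32 and 6.97. Myf5 and Myod1 entered through the wild-type array only and so had to be lower. Pax3, which crest and neural tube also make, was at 0.12. Of the 40 named genes with the lowest values 13 were on a muscle list and 22 on any list. Outside the lists this end held Polr2l (6.26 and 5.42), a shared polymerase subunit, and Htr3a (6.30 and 5.62), a serotonin-gated channel of neurons. Polr2l and Htr3a entered through the wild-type array only and so had to be lower. Of the 40 with the highest values 9 were on a list and none on a muscle list. Those off the lists included Dubr, a noncoding RNA (6.43 and 7.54), Zfp366 (5.67 and 6.31), Cdc42ep2 (6.00 and 6.64), an effector of the Cdc42 GTPase, and Bend6 (5.97 and 6.54). Of these only Dubr was bright on both arrays. Zfp366, Cdc42ep2 and Bend6 entered through the knockout array only and so had to be higher.

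The palatal shelves at E13.5 differ in tissue and stage and were set beside the head without a test. Muscle contractile genes were lower in both, with medians of -0.58 in the head and -0.84 in the shelves. Red cell membrane genes had medians of -0.30 (-0.12 over those bright on both arrays) and 0.05, otic factors -0.15 and -0.02, and cortical hem genes 0.10 and -0.05. Mitosis genes were at -0.13 and -0.06. Endothelial genes had medians of 0.11 and 0.15 and pericyte genes 0.09 and 0.22. In the opposite case the head median was near 0 where the shelf median was not, as for olfactory epithelium (0.03 and -0.96), hypoxia targets (-0.00 and 0.54), synaptic vesicle genes (0.00 and 0.40), neuronal cytoskeleton (-0.01 and 0.38) and motile cilia (-0.03 and -0.46). Among 84 lists with both medians, the size was larger in the shelves for 63. The SD of the difference over all genes was also larger there, 0.26 against 0.16.

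**Figure D5:**
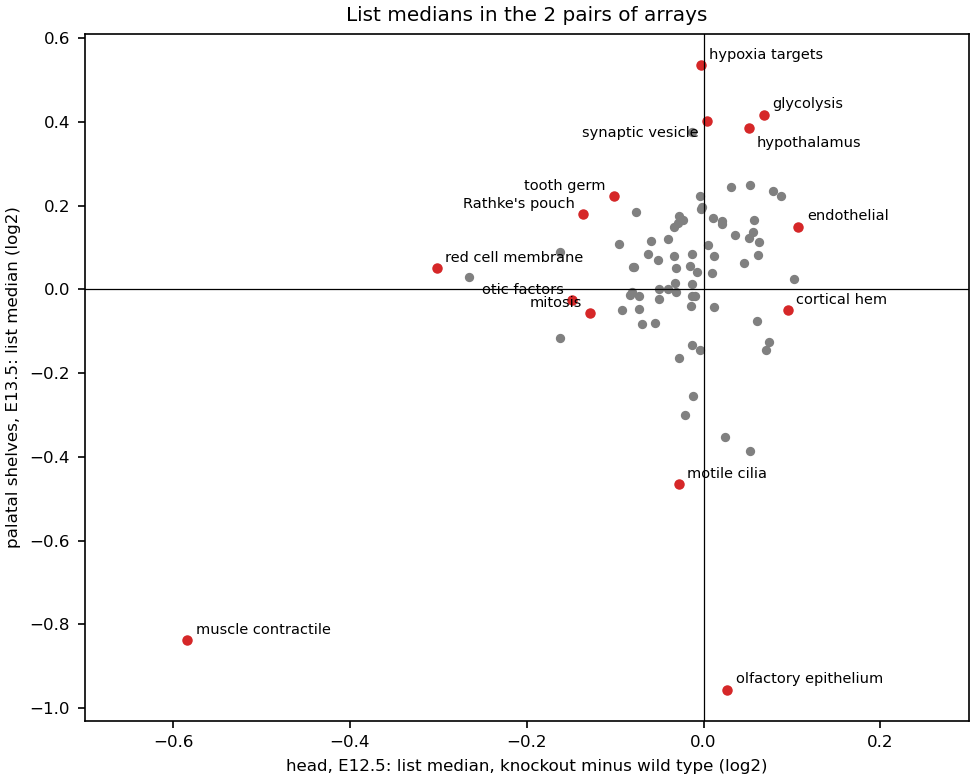
Median difference of each gene list (log2, knockout minus wild type) in the E12.5 head (horizontal axis) and in the E13.5 palatal shelves (vertical axis), 1 point per list with at least 3 genes entering in both pairs and without the Y-linked list. Only muscle contractile genes lie far below 0 on both axes (-0.58 and -0.84), and most points spread more along the vertical axis.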

How the data were processed

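RNA of 2 heads and 2 palatal shelf samples was hybridised to 1 array each, grouped by sample title. The authors deposited log2 expression per transcript cluster, made with RMA in Affymetrix Expression Console, per the submitters' processing notes. Versions, build and annotation were not stated. RMA normalizes probes to a common distribution before summarising them (array medians still ran from 5.64 to 5.70), so it would remove a shift common to the majority of genes, and folds of dim genes are compressed. With 4 arrays, precision is limited by their number.

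Clusters were named by the platform annotation: 23521 had 1 gene symbol, 1814 several and 16010 none. Of the named clusters, 23328 matched RefSeq by Entrez identifier, and clusters of 1 gene were averaged. Gene lists and symbol families were summarised by counts and medians, with no median under 3 members. Up to 6 members per list with the largest differences, members of opposite direction, and the 40 named genes at each end (predicted genes, olfactory receptors and small RNAs left out) were eligible for naming. Members, lists and limits were chosen with earlier results of these data known. Neurog1, Reln, Col2a1 and a few other known markers outside this rule were added with their values in view. Some list members were not analysed here. The summary was tested on simulated arrays. Alternatives, run with Python 3.11.15, R 4.3.3 and limma 3.58.1, were other scalings, filters, cluster choices, counting limits and list summaries.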

Additional observations from a re-analysis of the deposited data

Results flagged for a closer look

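The tooth germ list differed in sign between the pairs of arrays, with medians of -0.101 (head) and 0.223 (shelves), a gap of -0.324. Rathke's pouch and pituitary genes did the same, with -0.136 and 0.180 and a gap of -0.316. These were the 2 of 76 lists compared, those with at least 5 members in both pairs, whose medians lay on opposite sides of 0 by at least 0.1, and with 1 array per group the difference was not tested. Over members bright on both head arrays the head median was -0.08 for each of the 2 lists, which is within that limit. Among 10814 single genes that entered in both pairs, 0 were at least 1.5-fold in opposite directions. Few genes could meet that rule, since in the head only 40 were at least 1.5-fold lower and 12 higher. Of the transcript clusters without 1 named gene, which no comparison of named genes uses, 1.6% were at least 2-fold different in the head, from -2.14 to 2.72.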

How the results depend on the processing

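No paired analysis was possible because each group has 1 array and the labels carry no replicate numbers. Counted from 1.5-fold, 40 genes were lower and 12 higher. Without a filter on dim genes, 815 were lower and 1464 higher past the 0.32 threshold and 10 higher past 2-fold. With the upper-quartile filter these counts were 87 and 28, and 3 lower and 2 higher past 2-fold, and with the mean of both arrays at the entry level 3 were lower past 2-fold. Of 13 lists with a median of at least 0.1 in size, 11 kept their sign under every alternative. The exceptions were tooth germ (0.0273) and Rathke's pouch genes (0.0126), both without the filter, which also turned the Hox family (0.0372) and the carbonic anhydrases (-0.00945). With the upper-quartile filter the median was -0.254 for otic factors and -0.12 for red cell membrane genes, with 3 members left in the latter. It was -0.0947 for mitosis genes after quantile normalization and 0.0216 for cortical hem genes over members on 1 list only. The scalings moved the median of all genes to between -0.04 and 0.00. Of 743 list values in all, 661 stayed within the reading error of the list and 80 moved by more. The other 2 reversed a median of at least 0.1 in size. Sign changes of smaller medians were not counted apart, although many occurred. The hypothalamus list, for example, had 0.051 in the main setting and -0.111 at its lowest. Of 2928 values of single genes 3 moved by more than the reading error of a gene, all with the brightest cluster: Plagl1 (-0.04), Col1a2 (0.06) and Rtca (0.18). Filters leave the difference of a gene unchanged, and the cluster choice can change only genes with several clusters. Many of the single-gene values therefore could not move, and genes with 1 cluster could move under the scalings alone. The cause of the changes was not tested. Signal near background limits the folds of dim genes.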
